A study of Pleurotus ostreatus with 32 samples.

Results

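Mature cap was compared with mature stipe in fruiting bodies of Pleurotus ostreatus, the oyster mushroom, which is a basidiomycete that rots wood. The 6 libraries were chosen by their tissue labels, 3 of mature cap and 3 of mature stipe, out of 32 libraries in the series, and all genes were compared. Every library came from the dikaryotic strain N001, whose cells carry a pair of unlike nuclei. Fruiting took place on bagged spawn, in air of 80 to 85% humidity kept at 18 to 19 °C, under a daily cycle of 8 h light and 16 h dark. No treatment or mutation separated the groups. Each replicate pooled tissue of 3 to 8 fruiting bodies, and the labels do not say whether cap and stipe of 1 replicate number came from the same bodies. The other groups drawn on below were mature lamellae, mature skin, a mature group labelled dedifferentiated cap, young cap, young stipe, stage 3 cap, stage 3 stipe, stage 1 primordia and vegetative mycelium, with 3 libraries each except 2 for the dedifferentiated cap.

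In gilled mushrooms the stipe is the stalk that carries the cap, and it lengthens mainly by growth of existing hyphal cells along its axis. The cap, or pileus, spreads out above it, is covered by a skin of surface hyphae and bears on its underside the lamellae, where meiosis and spore formation take place. Both tissues arise from the same primordium and consist of the same kind of hyphae, so that the tissues differ in how these hyphae are arranged and in which genes they use.

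The deposited tables number the genes and pair the numbers with no name, product or position. None of the 12329 numbers matched the RefSeq gene list available here, which has 11849 entries for strain PC9 (0 matches). Functions are therefore not assigned, gene families cannot be counted, and groups of genes are described by where else in the mushroom they were high or low. Total counts were 14345103, 20373382 and 16014910 in mature cap replicates 1 to 3, against 14208088, 15441634 and 13952458 in mature stipe replicates 1 to 3. Levels are given as CPM, a gene's counts relative to the TMM-scaled total of its library, where TMM is a scaling that allows for differences in library composition. CPM is not corrected for gene length, so levels are compared between libraries and not between genes. As bulk tissue was sequenced, fewer cells of a kind and less RNA per cell cannot be told apart in any value below.

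Mature cap and mature stipe had very similar transcriptomes. Across 10814 tested genes, the Spearman correlation between a cap and a stipe library ran from 0.929 to 0.979 with a median of 0.955. Within mature cap it ran from 0.964 to 0.982, and within mature stipe from 0.977 to 0.992. Mature cap was less like mature skin (median 0.938) and much less like mature lamellae (median 0.830) than like mature stipe. These correlations are across genes, which are not independent replicates, and describe the libraries only.

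Several single libraries stood apart from their replicates. Stipe replicates 1 and 2 were the closest pair, at 0.992. Stipe replicate 3 lay at 0.980 and 0.977 to the other stipes and at 0.979 and 0.976 to cap replicates 2 and 3, so that it was about as close to those caps as to its own group. Cap replicate 1 was the cap library least like the others, at 0.964 and 0.974, and the least like stipes, at 0.929 to 0.955. The median gene ranged over 0.62 log2 units among the 3 cap libraries and over 0.43 among the 3 stipe libraries, whereas its cap and stipe means differed by 0.35.

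The most abundant transcripts were shared by the tissues. Ranked by mean FPKM, a level per length of gene, 7 of the 10 highest genes were the same in cap and stipe, and so were 83 of the highest 100. The 10 highest genes held 18.2% of all FPKM in cap and 18.7% in stipe. Among the 117 genes that were in the highest 100 of either tissue, 1 differed between the tissues by the test below. Of 10755 genes in the deposited log2 FPKM table, 9471 had at least 1 FPKM in all 6 libraries. There were 9 genes with at least 1 FPKM in all 3 caps and under 1 in all 3 stipes and 21 genes with the reverse pattern, of which the test below called 4.

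The question of which genes set the mature tissues apart was addressed with edgeR's quasi-likelihood test on all 10814 genes. Calls needed a change of 2-fold or more together with an adjusted p (Benjamini-Hochberg) under 0.05. The test called 182 genes, 1.68% of those tested, and most of them were higher in stipe. Those higher in cap numbered 24 (0.222% of those tested), and those higher in stipe numbered 158 (1.46%). Without a fold threshold the numbers were 30 and 167, and 1436 genes had an unadjusted p under 0.05, of which 501 were higher in cap and 935 higher in stipe. Leaving out cap replicate 1 gave 59 calls, cap replicate 3 gave 76, stipe replicate 1 gave 53 and stipe replicate 2 gave 82. With only the 6 compared libraries in the fit it was 354 (86 higher in cap, 268 higher in stipe), of which 143 were among the 182, so the number of calls depended on which libraries entered the fit.

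**Figure D1:**
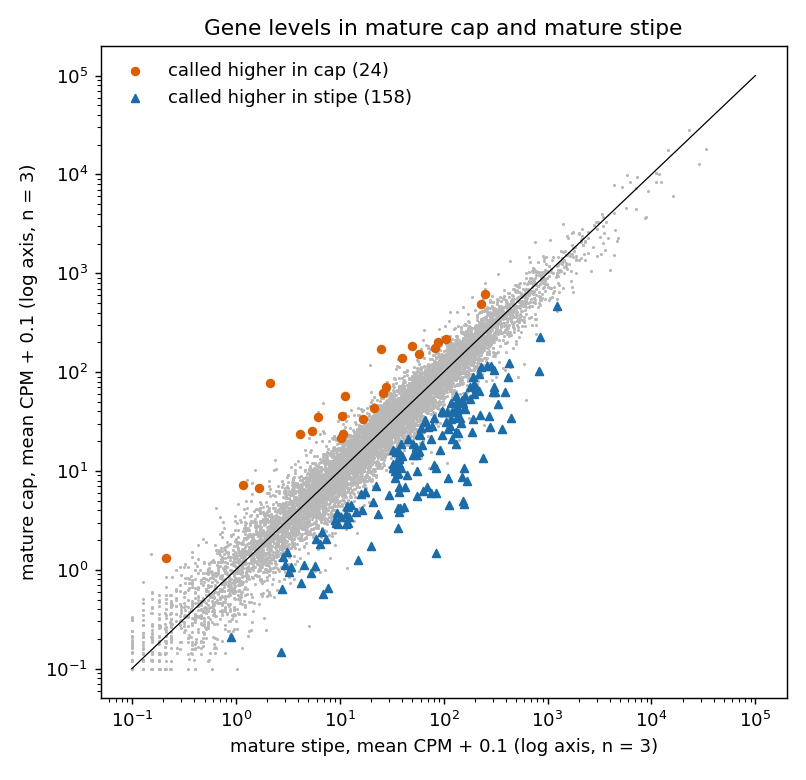
Each point is 1 of 10814 tested genes, with its mean CPM + 0.1 in mature cap (vertical, log axis) against that in mature stipe (horizontal, log axis), 3 libraries a side. Orange circles are the 24 genes called higher in cap and blue triangles the 158 called higher in stipe; most grey points lie close to the diagonal line of equal level.

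A missing call did not show equal expression. The 95% interval of the cap over stipe change lay wholly within 2-fold in either direction for 3655 genes (33.8% of those tested), and wholly beyond 2-fold for 124 genes, 15 of them higher in cap and 109 in stipe. For the remaining 7035 genes (65.1%) the interval reached across a 2-fold boundary. Half-widths of the interval had a median of 0.82 log2 units.

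The genes called higher in stipe had the larger differences. Their absolute log2 change had a median of 1.88 and 68 of 158 differed at least 4-fold, 28 of them at least 8-fold. Genes called higher in cap had a median of 1.60, with 9 of 24 at least 4-fold and 2 at least 8-fold. Over all genes tested the median absolute change was 0.35. These sizes were selected by the call and are given as a description.

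By medians, the differing genes lay above all genes in the tissue where they were higher and below them in the other. The 24 genes higher in cap had a median of 63.6 FPKM in cap and 20.6 in stipe, and the 158 genes higher in stipe had a median of 14.8 FPKM in cap and 65.8 in stipe. The median over all genes was 26.1 FPKM in cap and 26.9 in stipe. None of the called genes lacked reads in the tissue where it was lower: 0 of 182 had a count of 0 in all 3 of those libraries. Coding lengths implied by the deposited FPKM values had a median of 1117 bases in genes higher in cap, 1049 in genes higher in stipe and 976 over all genes. Counts were in part fractions in 2 of the 24 and 12 of the 158 genes, against 9.65% of all genes.

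Gene 6147 had the largest difference among the 3 cap genes that averaged 10 or more counts in each tissue, did not overlap, and whose call held without any single library. It had 166, 125 and 228 CPM in cap replicates 1 to 3, against 17.6, 24.2 and 32.95 CPM in stipe replicates 1 to 3. The lowest cap library thus lay well above the highest stipe library. The log2 change of cap over stipe was 2.80 ± 0.31 (SE, n = 3 each; edgeR, Benjamini-Hochberg adjusted p = 2.15e-05), a 6.94-fold difference. Elsewhere in the mature body it was low, with means of 15.1 CPM in lamellae, 17.7 CPM in skin and 9.02 CPM in the dedifferentiated cap. In primordia and young bodies its means were 3.36 to 10.04 CPM, and in mycelium 45.8 ± 19.8 CPM. Mature cap held its highest level of all 11 groups, at 173 ± 51.4 CPM, and the next group was mycelium.

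Gene 1691 was the other gene of the cap chosen by the same rule. It had 30.8, 29.3 and 43.9 CPM in cap replicates 1 to 3, against 5.002, 5.504 and 7.885 CPM in stipe replicates 1 to 3. The groups did not overlap, which the rule required and which held for 28.1% of all genes tested. The log2 change was 2.50 ± 0.45 (SE, n = 3 each; edgeR, Benjamini-Hochberg adjusted p = 0.00266). Unlike gene 6147, it was also high in skin, at 20.8, 40.1 and 18.99 CPM, a range that overlaps that of the cap. Its mean was 2.26 CPM in lamellae and between 0.967 and 2.30 CPM in primordia and young bodies, and 15.4 ± 4.47 CPM in mycelium.

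Gene 7894 had the largest difference among the 33 stipe genes that averaged 10 or more counts in each tissue, did not overlap, and whose call held without any single library. It had 2.70, 5.63 and 4.94 CPM in cap replicates 1 to 3, against 179, 117 and 39.5 CPM in stipe replicates 1 to 3. Even stipe replicate 3, the lowest stipe, lay far above every cap. The log2 change of cap over stipe was -4.66 ± 0.54 (SE, n = 3 each; edgeR, Benjamini-Hochberg adjusted p = 2.42e-05), a 25.2-fold difference. In young stipe the gene had a mean of 1.05 CPM, in lamellae 1.96 CPM and in skin 11.2 CPM. High levels were seen again in mycelium, at 147 ± 40.3 CPM, and in the dedifferentiated cap, whose 2 libraries held 75.1 and 282 CPM.

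Gene 2938 was the second such gene of the stipe. It had 15.1, 12.97 and 12.5 CPM in cap replicates 1 to 3, against 321, 287 and 116 CPM in stipe replicates 1 to 3. The cap libraries were close to each other, and stipe replicate 3 was again the lowest stipe. The log2 change was -4.16 ± 0.64 (SE, n = 3 each; edgeR, Benjamini-Hochberg adjusted p = 0.000698). It was low in mycelium, at 12.1 ± 4.96 CPM, and higher in skin, at 77.3 ± 30.9 CPM. The 2 dedifferentiated cap libraries held 82.3 and 348.5 CPM. In stage 3 primordia the order of the tissues was the opposite, with 76.9 ± 43.5 CPM in cap and 14.2 ± 5.38 CPM in stipe (log2 change 2.44 ± 0.60, SE, n = 3 each; edgeR, Benjamini-Hochberg adjusted p = 0.0124).

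**Figure D2:**
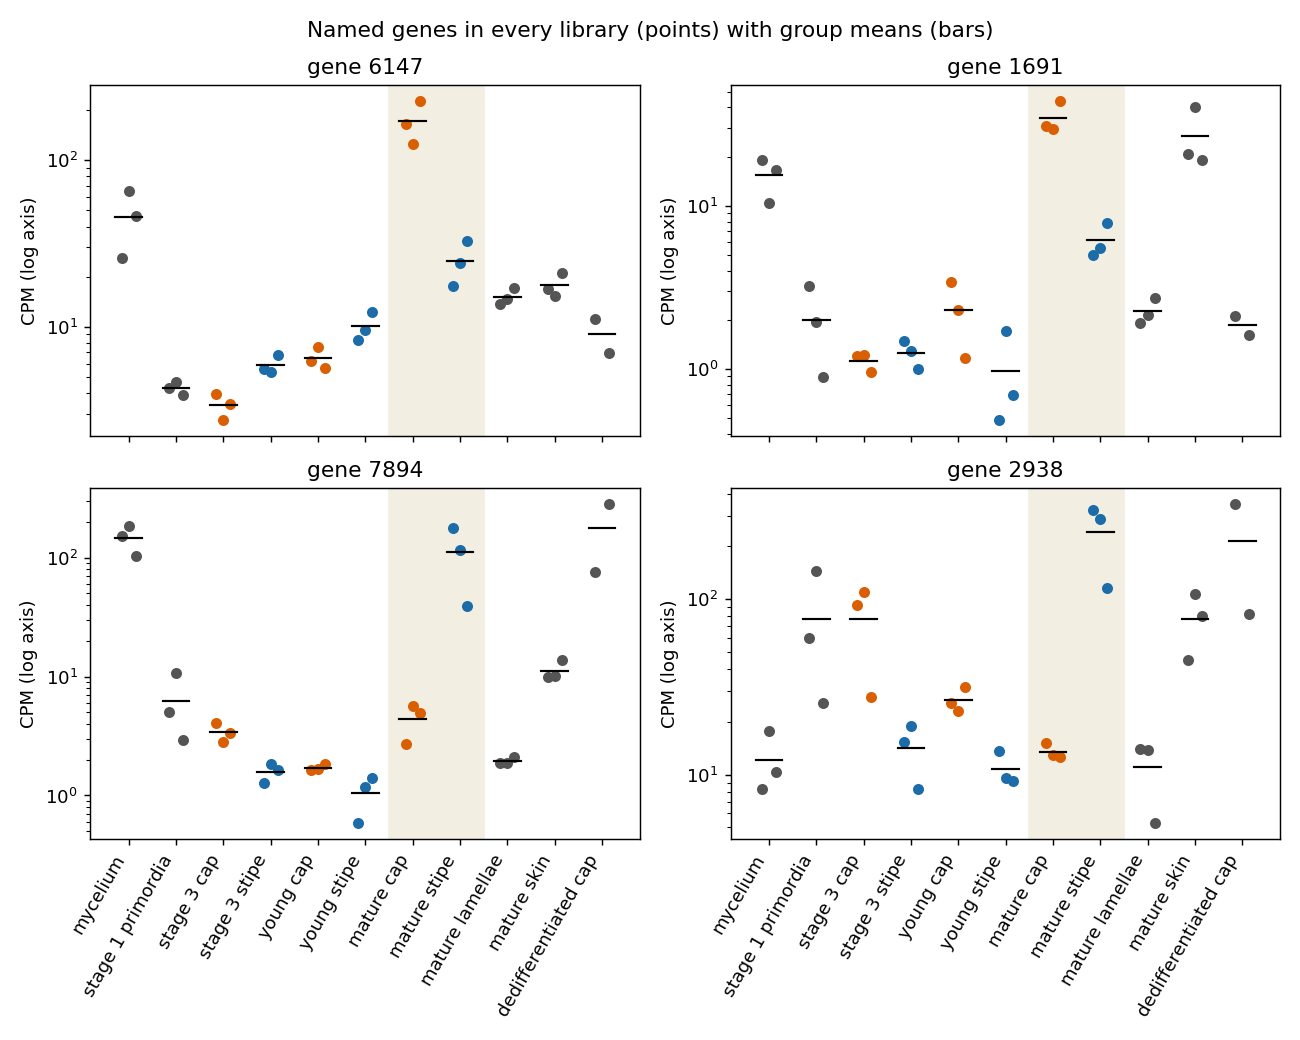
CPM of genes 6147, 1691, 7894 and 2938 (log axis) in each of the 32 libraries, as points (orange for cap, blue for stipe, grey for other groups), with bars for the group means and the mature cap and stipe shaded. As the naming rule required, genes 6147 and 1691 are higher in all 3 mature caps than in all 3 mature stipes. Genes 7894 and 2938 are the reverse, with stipe replicate 3 the lowest stipe for both.

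The genes with the largest fitted differences lost their call without some single libraries, whereas these 4 were chosen because theirs held without any. The largest difference towards the cap, 5.25 ± 1.08 log2 units (SE), was in a gene with 102, 16.9 and 113 CPM in caps against 1.27, 1.21 and 3.57 CPM in stipes, and its call was lost without stipe replicate 1 or 2. Its counts were fractions in 17 libraries. The largest towards the stipe, -5.92 ± 1.47 log2 units (SE), was in a gene with 1.28, 1.36 and 1.5 CPM in caps against 5.17, 8.09 and 238 CPM in stipes. Its call was lost without stipe replicate 3 or without any 1 of the caps.

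Calls that held in all 6 fits that each leave out 1 of the compared libraries numbered 3 for genes higher in cap and 35 for genes higher in stipe. Calls that held in at most 2 of these fits numbered 12 of 24 in cap (2 in none, 3 in 1 and 7 in 2) and 81 of 158 in stipe (4, 43 and 34).

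Within the stipe the called genes were graded in the same order in most cases. Stipe replicate 3 was the lowest of the stipes for 134 of the 158 genes, against 4246 of all 10814 genes, and the highest for 17. The median over the 158 genes was 13.6, 14.5 and 14.1 CPM in cap replicates 1 to 3, against 65.8, 58.5 and 42.5 CPM in stipe replicates 1 to 3. In the 134 genes, stipe replicate 3 held a median of 0.496 times the mean of the other stipes. In the 17 genes it held 1.96 times that mean, and these differed in other groups too. Their median level was 89.9 CPM in young stipe and 79.3 CPM in skin, against 12.7 and 21.5 CPM for the 134 genes. Of the 17 genes, 7 were also called higher in stipe in young bodies, and of the 134 genes 6 were, against 1.38% of all genes. Summed over the 24 genes of the cap, the level was 3198, 2451 and 2952 CPM in caps against 1025, 1026 and 1187 CPM in stipes, with stipe replicate 3 the highest stipe.

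The genes called higher in mature stipe were, by group medians, at a common low level in most other groups, though single genes peaked elsewhere as given below. Their median level was 61.4 CPM in mature stipe, from group means, and 13.4 to 18.3 CPM in mature cap, mature lamellae, young cap, young stipe, stage 3 cap, stage 3 stipe and stage 1 primordia. It was 23.9 CPM in skin, 25.9 CPM in mycelium and 26.9 CPM in the dedifferentiated cap. Mature cap, at 13.9 CPM, thus had the level of young tissues, and mature stipe stood above all. The call favours both a low mature cap and a high mature stipe in these medians. The contrast compared the mature cap and stipe means, while the libraries of the other 9 groups also entered the fit and its estimate of spread, so the calls were not made without them.

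Of the 158 genes, 81 had their highest mean of all 11 groups in mature stipe (51.3%, against 10.3% of all genes tested), which the call favours. The number was 109 of 188 genes without stipe replicate 3 and 31 of 50 without cap replicate 1. In 45 genes mature stipe was at least 2-fold above every other group and in 12 at least 4-fold. The call favours these counts as well, and their share over all genes was not counted. The 81 genes had a median of 24.5 CPM in cap against 105 CPM in stipe, and 20.9 CPM in young stipe. Another 28 genes were highest in the dedifferentiated cap (17.7%, against 16.9% of all genes), with medians of 12.3 CPM in cap, 44.3 CPM in stipe and 115 CPM in the dedifferentiated cap. In 21 genes mycelium was highest (13.3%, against 21.7%), with medians of 4.90 CPM in cap, 15.8 CPM in stipe and 49.99 CPM in mycelium, and in 11 it was lamellae (6.96%, against 9.11%). Young cap and young stipe were the highest group for 0 of the 158 genes, against 2.42% and 4.17% of all genes.

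The genes called higher in mature cap had a different profile. By group medians of the 24 genes they were lowest in mature stipe, which the call favours, and highest in mature cap, young cap and skin. Their median level was 59.0 CPM in mature cap, 59.02 CPM in young cap, 56.1 CPM in skin, 49.1 CPM in young stipe and 18.9 CPM in mature stipe. The remaining groups ranged from 23.7 CPM in mycelium to 40.8 CPM in stage 3 cap. In every mature stipe library the median, 15.9 to 22.2 CPM, lay below that of all 29 other libraries, of which the lowest had 23.1 CPM. The order was another in the 9 of these genes called without cap replicate 1, with mycelium highest and mature stipe still lowest. Their median was 36.6 CPM in mature cap, 34.8 CPM in skin, 25.5 CPM in young cap, 45.8 CPM in mycelium, 5.46 CPM in the dedifferentiated cap and 5.31 CPM in mature stipe. Whether the library or the smaller set of genes changed the order was not tested. Mature cap was the highest group for 5 of the 24 genes (20.8%, against 7.01% of all genes), in 1 gene by at least 2-fold. Mature stipe was the lowest group for 8 (33.3%, against 13.8% of all genes), and for 2 of 9 (22.2%) without cap replicate 1. The call favours both counts. Skin, the surface of the cap, had a mean above that of mature stipe for 23 of the 24 genes, and lamellae for 16. The call, which chose genes low in mature stipe, favours these counts too, and their share over all genes was not counted. Against mature cap the numbers were 11 for skin and 9 for lamellae.

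**Figure D3:**
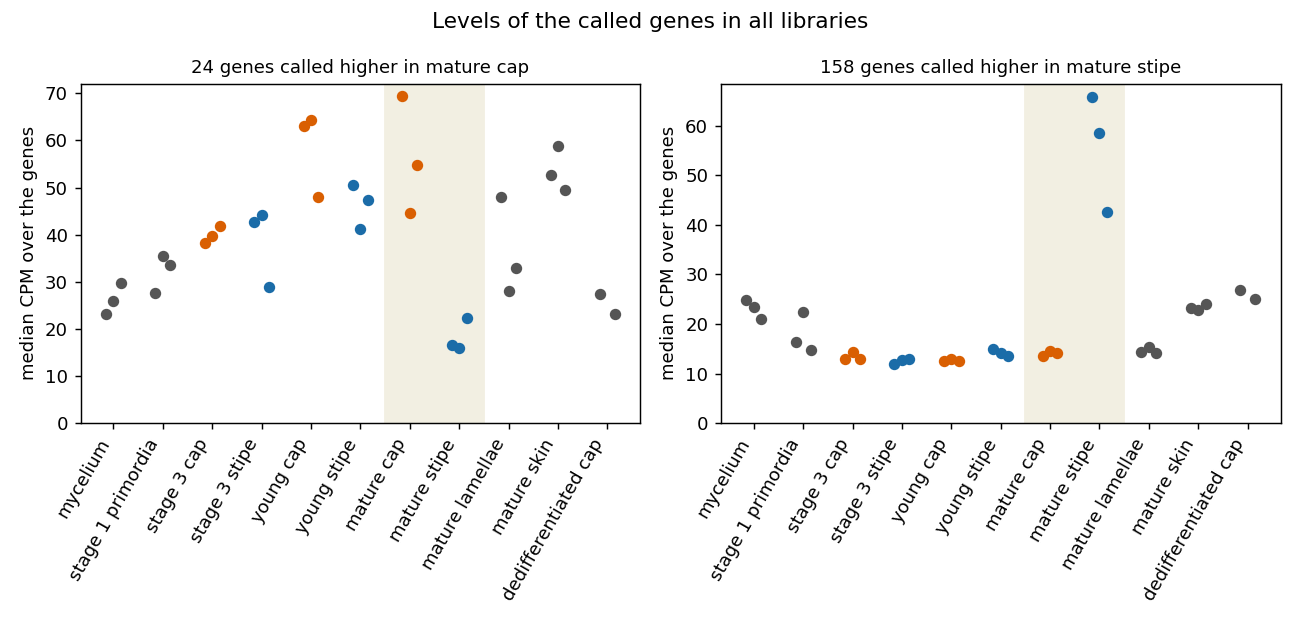
Median CPM over the 24 genes called higher in mature cap (left) and the 158 called higher in mature stipe (right) in each of the 32 libraries, 1 point a library (orange for cap, blue for stipe, grey for other groups), with the mature cap and stipe shaded. On the left the mature stipes, at 15.9 to 22.2 CPM, lie below every other library. On the right they stand alone at 42.5 to 65.8 CPM. The mature values chose the genes in both panels.

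Whether the mature difference was already present in earlier tissues was asked of the young and stage 3 libraries, which are separate from those of the mature tissues. Of the 24 genes higher in mature cap, 5 were called higher in young cap than in young stipe (background 1.94% of all genes). At stage 3, 4 were called higher in cap (background 2.77%). Of the 158 genes higher in mature stipe, 4 were called higher in young cap and 15 higher in young stipe (background 1.38%). The 15 became 9 of 188 genes without mature stipe replicate 3 and 3 of 50 without mature cap replicate 1. At stage 3, 10 were called higher in cap and 9 higher in stipe (background 2.69%). These were 8 and 6 of 188 genes without mature stipe replicate 3, and 2 and 1 of 50 without mature cap replicate 1. The 158 genes had a median log2 change of cap over stipe of 0.04 at stage 3 and -0.14 in young bodies, beside -0.10 and 0.05 for all genes. A total of 11 genes, 3 of the cap and 8 of the stipe, were called in the same direction at all 3 stages.

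**Figure D4:**
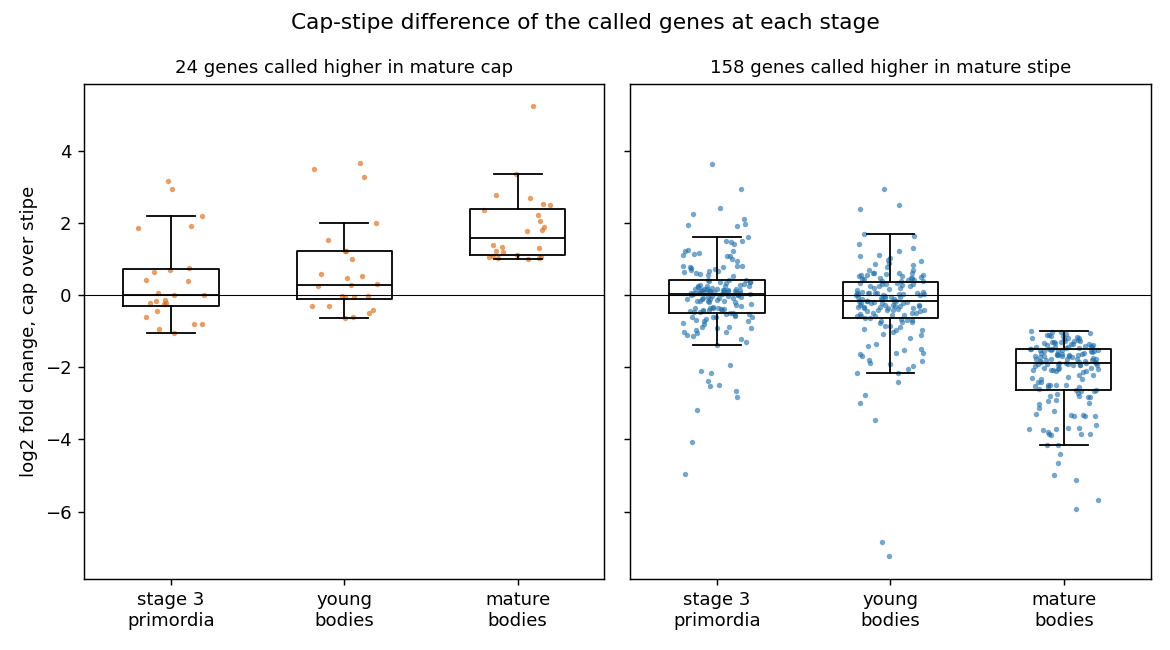
Log2 change of cap over stipe at stage 3, in young and in mature bodies for the 24 genes called higher in mature cap (left) and the 158 called higher in mature stipe (right). Points are genes, boxes the quartiles with the median, whiskers the last value within 1.5 box lengths; the mature values chose the genes, and the stage 3 and young values, from other libraries, scatter on both sides of 0.

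The change of the tissue difference between stages was tested as such, by interaction terms in the same fit, where an adjusted p under 0.05 sufficed whatever the fold. Between mature and young bodies edgeR called 253 genes (2.34% of those tested), and the cap over stipe value was larger in mature bodies for 42 of them and smaller for 211. Between mature bodies and stage 3 primordia it called 434 genes (4.01%), of which 127 had the larger value in mature bodies and 307 the smaller. Of the 158 genes higher in mature stipe, 64 were called against young bodies, 63 of them with the smaller mature value, and 80 against stage 3, all with the smaller mature value. Of the 24 genes higher in mature cap, 5 were called against young bodies and 10 against stage 3. As the mature difference chose these genes and enters the interaction, their counts are a description. The count of 253 fell to 120 when mature cap replicate 1 was left out, to 123 for mature cap replicate 3, to 100 for mature stipe replicate 1 and to 107 for mature stipe replicate 2. Of the young libraries, it was 159 without young cap replicate 1, 135 without young cap replicate 3, 92 without young stipe replicate 1 and 128 without young stipe replicate 3. That of 434 was 271 without mature cap replicate 1, 238 without mature stipe replicate 1, 278 without mature stipe replicate 2, 277 without stage 3 cap replicate 2 and 912 without stage 3 stipe replicate 3.

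By the interaction term, the tissue difference differed between mature and young bodies for 3 of the 4 named genes. As the mature difference chose these genes and enters this term, their values are a description. The interaction, mature minus young, was 3.43 ± 0.43 log2 units for gene 6147 (SE; edgeR, Benjamini-Hochberg adjusted p = 8.21e-05) and for gene 7894 it was -5.35 ± 0.73 (edgeR, Benjamini-Hochberg adjusted p = 9.39e-05). Gene 2938 had an interaction of -5.47 ± 0.85 (SE; edgeR, Benjamini-Hochberg adjusted p = 0.00053). For gene 1691 it was 1.26 ± 0.63, with a 95% interval of -0.03 to 2.56 (edgeR, Benjamini-Hochberg adjusted p = 0.387).

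Lists of genes high in other tissues were taken from libraries other than the 6 compared, to describe their levels in the labelled cap and stipe. The early cap list, 145 genes called higher in cap at both stage 3 and the young stage, had members on both sides in the mature tissues. Its median log2 change of mature cap over mature stipe was -0.03, beside -0.02 for all genes, with 3 genes called higher in cap (2.07%, against 0.222% of all genes) and 3 higher in stipe (2.07%, against 1.46%). At an unadjusted p under 0.05 these were 8 and 20, against 501 and 935 of all 10814 genes. Its summed level was 3290 to 4038 CPM in mature caps against 3417 to 4179 CPM in mature stipes, ranges that overlap, and 13840 to 16546 CPM in young caps. The early stipe list, 95 genes called higher in stipe at both earlier stages, leaned towards the stipe. Its median was -0.40, with 0 genes called higher in cap and 8 (8.42%, against 1.46% of all genes) higher in stipe. At an unadjusted p under 0.05 these were 4 and 20, against 501 and 935 of all 10814 genes. A negative change was seen in 66 of 95, against 5585 of all 10814 genes. Its summed level was 53476 to 73819 CPM in mature caps against 69110 to 75264 CPM in mature stipes, which overlap, and 41573 to 57388 CPM in young stipes.

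The lamellae list summed to far less in both tissues than in lamellae, whereas the skin list summed to about as much in both as in skin. Neither list was chosen against mature cap or mature stipe, so the skin list does not set skin apart from them. The lamellae list, 319 genes at least 4-fold higher in lamellae than in skin, young cap and young stipe, summed to 12803 to 19795 CPM in caps against 18684 to 19519 CPM in stipes, and to 161970 CPM or more in lamellae. Of its genes, 0 were called higher in cap and 8 higher in stipe (2.51%, against 1.46% of all genes). At an unadjusted p under 0.05, 5 and 26 passed, against 501 and 935 of all 10814 genes. The median change was -0.27, and 3 genes had no count in any cap and 2 in any stipe. The median ran from -0.51 without cap replicate 1 to -0.03 without stipe replicate 1. The skin list, 100 genes at least 4-fold higher in skin than in lamellae, young cap and young stipe, summed to 17140 to 36808 CPM in caps against 23784 to 30401 CPM in stipes, close to the 20118 to 31394 CPM of skin itself. Its median change was -0.44, with 2 genes called higher in cap (2%, against 0.222% of all genes) and 6 higher in stipe (6%, against 1.46%), and 2 genes had no count in any cap and 1 in any stipe. Sums weigh abundant genes most, and the skin list's median level per library was 3.72 to 4.22 log2 CPM in caps and 4.22 to 4.46 in stipes. The part of these lists in the results above was not tested.

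The remaining lists had medians below 0 and most of their genes on the stipe side. The dedifferentiated cap list, 555 genes at least 4-fold higher there than in lamellae, skin, young cap and young stipe, had a median log2 change of cap over stipe of -0.53. Of its genes, 110 had a positive change and 443 a negative one, against 5213 and 5585 of all 10814 genes. Among them 0 were called higher in cap and 23 higher in stipe (4.14%, against 1.46% of all genes). At an unadjusted p under 0.05 these were 7 and 150, against 501 and 935 of all genes. It summed to 11865, 18118 and 18409 CPM in cap replicates 1 to 3, against 28671, 28012 and 22724 CPM in stipe replicates 1 to 3, so that the tissues did not overlap, and to 135970 CPM or more in the dedifferentiated cap. The mycelium list, 1266 genes at least 4-fold higher in mycelium than in each stage 1, stage 3 and young group, had a median of -0.37. It had 344 positive and 916 negative changes, against 5213 and 5585 of all 10814 genes. Of its genes, 4 were called higher in cap (0.316%, against 0.222% of all genes) and 28 higher in stipe (2.21%, against 1.46%), shares near those of all genes. At an unadjusted p under 0.05 the numbers were 29 higher in cap and 235 higher in stipe, against 501 and 935 of all 10814 genes. The mycelium list summed to 39985, 78181 and 64584 CPM in cap replicates 1 to 3. In stipe replicates 1 to 3 it summed to 137090, 121450 and 67749 CPM, which overlap the caps through stipe replicate 3 and cap replicate 2. These lists share 268 genes, 48.3% of the dedifferentiated cap list and 21.2% of the mycelium list. The part of these lists in the calls was not tested. In all alternative scalings and leave-out fits run, both medians stayed below 0 (-0.63 to -0.38 for the dedifferentiated cap list, -0.47 to -0.25 for mycelium). By the median log2 CPM of each library, all caps lay below all stipes for every list but the lamellae list. The median over all genes tested did so too, at 22.8 to 24.8 CPM in caps against 24.97 to 25.27 CPM in stipes.

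**Figure D5:**
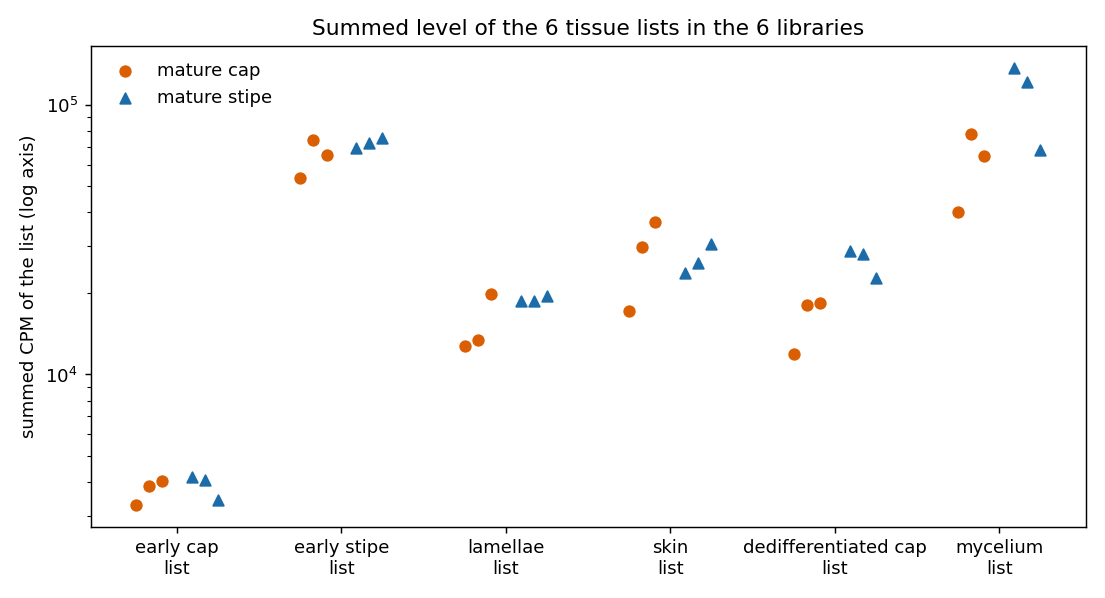
Summed CPM (log axis) of each of the 6 tissue lists in the mature cap libraries (orange circles, replicates 1 to 3 from left to right) and mature stipe libraries (blue triangles). By these sums, cap and stipe overlap for every list except the dedifferentiated cap list, where the caps, at 11865 to 18409 CPM, lie below the stipes, at 22724 to 28671 CPM. The medians per library given above are not drawn.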

How the data were processed

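Poly(A) RNA was made into libraries that keep the strand, with 150 bases read from each of 2 ends, per the labels' protocols. Per the submitters' processing notes, the tools were STAR, featureCounts, R 3.0.2, edgeR 3.4.2 and limma 3.18.13, with no roles given, and no genome build is named in those sources. The authors deposited expected counts (4.11% of values above 0 in the 6 libraries are fractions) and a table of log2 FPKM, read as log2 since it holds values below 0. Set beside the counts, that table's scaling of each library was within 0.00418 log2 units of TMM. The gene lengths they imply were multiples of 3 within 0.5 for 93.7% of 1548 well-covered genes under 600 bases, so they are coding lengths.

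Here counts were rounded, genes kept by filterByExpr (10814), scaled by TMM and fitted in edgeR 4.0.16 (R 4.3.3) with 1 mean for each of 11 groups. All 32 libraries entered this robust quasi-likelihood fit, which left 21 residual degrees of freedom (common coefficient of variation 0.374). SEs and 95% intervals come from the quasi-likelihood F. The labels call replicates biological. No pair of replicates agreed within sampling noise (lowest chi-square per degree of freedom 19.6). Alternatives used DESeq2 1.42.0 and limma 3.58.1. On simulated counts for this comparison (10814 genes), recovery was scored at an adjusted p under 0.05 without a fold threshold. The test recovered 14 of 100 genes changed 2-fold and 83 of 100 changed 4-fold, all drawn from genes with higher counts. It also called 10 genes that were unchanged. Named genes are the 2 per direction, whose counts averaged 10 or more in each tissue and did not overlap, and whose call held in most leave-out fits, then by size. Members, lists and rule were chosen with earlier results of these data known.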

Additional observations from a re-analysis of the deposited data

Results flagged for a closer look

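The cap-stipe difference itself differed between stages in 253 genes (mature against young bodies) and 434 genes (mature bodies against stage 3 primordia), by the interaction test in edgeR at a Benjamini-Hochberg adjusted p under 0.05. Of the named genes, gene 6147 had an interaction of 3.43 log2 units against young bodies and 3.60 against stage 3. Gene 7894 had -5.35 and -5.77, and gene 2938 had -5.47 and -6.60 log2 units. Gene 6147 was higher in all mature caps and genes 7894 and 2938 in all mature stipes, as the naming rule required. The mature difference chose the named genes and enters the interaction, so these values are a description. Gene 1691 had an interaction of 2.66 log2 units against stage 3 (edgeR, Benjamini-Hochberg adjusted p = 0.0153).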

How the results depend on the processing

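The count of 182 genes moved by over 1.5 times with only the 6 compared libraries in the fit (354), with the 14 libraries of mature tissue (335, of which 172 were among the 182), with the DESeq2 test (323) and at 4-fold (77). Leaving out 1 library gave 53 to 224. It was 178 with DESeq2 size factors, 135 with library size alone, 175 without the low-count filter, 207 with limma on log2(FPKM + 1) and 200 on log2(FPKM + 0.1). The interaction count against young bodies was 453 with the DESeq2 test and 92 to 269 without 1 library; that against stage 3 was 812 and 238 to 912, with 326 larger and 486 smaller values under the DESeq2 test. The causes were not tested. The 4 named genes kept direction and call in all 13 refits run for each. These include the leave-out fits by which the genes were chosen, where the outcome was fixed by the rule. Library size alone turned the median of all genes to 0.10 and of the early cap list to 0.07, and that list's median was -0.23 without cap replicate 3. The number of genes with an interval within 2-fold was 5802 with the 6 libraries alone. Where stipe genes peak without 2 libraries was examined after seeing the data.

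Whether the replicate numbers pair the libraries was not established: the deviations of cap and stipe with the same number correlated at 0.00943, 0.23 and 0.147, not all over 0.1. With the replicate block the counts were 164, 245 and 470.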
